A study of Homo sapiens with 6 samples.

Results

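DNAJB9, CREBRF, SLC7A11 and STC2 are 4 genes of the responses to unfolded protein and to shortage of amino acids, measured here among 11584 genes in HEK293 cells depleted of the RNA-binding protein LIN28B. They were taken by name, through the platform annotation of the probe sets, and each was read by a single probe set, so that 4 probe sets of 13008 in the deposited table carry them. The genes were chosen with their values on the knockdown, induced and not induced arrays known. Their differences between these groups are therefore given as a description without a test.

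Cells meet unfolded protein in the endoplasmic reticulum (ER) with 3 sensors, IRE1, ATF6 and PERK. IRE1 splices the XBP1 transcript, ATF6 is cut to release a transcription factor, and PERK phosphorylates the initiation factor eIF2, which slows translation and lets the transcription factor ATF4 be made. GCN2 phosphorylates eIF2 when amino acids run short, so both stresses meet in ATF4, whose targets import and make amino acids. DNAJB9 encodes ERdj4, an ER co-chaperone of BiP that helps to degrade misfolded proteins and to hold IRE1 inactive. CREBRF binds the transcription factor CREB3 and lowers its activity, and is also described as lowering the glucocorticoid receptor. SLC7A11 is the light chain of the cystine and glutamate exchanger, which feeds glutathione synthesis and is a target of both ATF4 and NRF2. STC2 is a secreted glycoprotein, an inhibitor of the protease PAPP-A and a target of ATF4.

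Total RNA was measured on 6 Affymetrix U133 Plus 2.0 arrays, with 2 arrays in each of 3 groups of HEK293 T-REx Flp-In cells. HEK293 is a human line of embryonic kidney origin. All groups carried a FLAG/HA-tagged LIN28B gene that doxycycline switches on. The groups were transfected with siRNA against LIN28B and not induced (knockdown), mock transfected and induced, and mock transfected and not induced. No array used here comes from cells transfected with a control siRNA, so that siRNA transfection and the loss of LIN28B cannot be told apart. Per the labels' protocols the inducer was used at 250 ng/ml, with 15 to 20 h stated for crosslinked cells and no duration stated for the array samples. Separate cultures are not stated for the replicates, and p-values thus reflect a spread among arrays that may be technical. All cells of a culture were measured together, and a change in the share of cells cannot be told apart from a change in RNA per cell.

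Values are log2 expression values as deposited, and all fold changes are differences on that scale. LIN28B read 7.51 and 7.53 on the knockdown arrays, 10.15 and 10.11 on the induced arrays, and 10.02 and 9.85 on the arrays not induced, so the targeted transcript was lower in both knockdown samples. Arrays of 1 group correlated at 0.9899 to 0.9937 across probe sets, and the knockdown arrays with the mock arrays at 0.97 to 0.9745. Of cell type markers, 3 of 4 epithelial ones (KRT8, KRT18 and EPCAM) and 2 of 4 neuronal ones (INA and NEFL) were in the table, against 1 of 4 blood and 1 of 4 fibroblast markers. The summed log2 values of the epithelial markers were 29.0 on both knockdown arrays and between 28.1 and 28.4 on the mock arrays. INA read 9.35 and 9.13 on the knockdown arrays and between 8.49 and 8.59 on the mock arrays, and NEFL read 9.92 and 9.97 on the knockdown arrays and between 10.53 and 10.63 on the mock arrays. Their part in the results was not tested. The deposited table holds part of the array, and 13007 of its probe sets lay above 5 on at least 2 arrays. Each of the 4 genes lay above 5 on at least 3 of the 4 mock arrays, and the rule that chose the probe sets of the table is not given.

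DNAJB9, read by probe set 202843_at, had log2 values of 6.69 and 6.25 on the knockdown arrays, 5.57 and 5.22 on the induced arrays, and 5.66 and 4.98 on the arrays not induced. Both knockdown arrays lay above all 4 mock arrays, while the mock groups overlapped. Knockdown and not-induced arrays did not overlap for 62.6% of all genes. The log2 fold change of knockdown against not induced was 1.15 (SE 0.24), a 2.22-fold higher level. By absolute change DNAJB9 ranked 142 among 11584 genes, within the top 1.23%. Its arrays were the most scattered of the 4 genes, with SDs of 0.31 in the knockdown, 0.25 in induced cells and 0.47 in cells not induced (n = 2 each). Differences between single arrays of the knockdown and of cells not induced therefore ran from 0.60 to 1.71. Without not-induced replicate 1, the higher of its pair, the fold change was 1.49, and without replicate 2 it was 0.81.

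CREBRF, read by 238476_at, had 6.57 and 6.68 on the knockdown arrays, 5.59 and 5.49 on the induced arrays, and 5.81 and 5.61 on the arrays not induced. The knockdown arrays were again the highest pair, and differed from each other by less than they did from any mock array. The log2 fold change of knockdown against not induced was 0.92 (SE 0.14), a 1.89-fold higher level, and ranked 349 by absolute change (top 3.01%). The SDs of CREBRF were 0.07 in the knockdown, 0.07 in induced cells and 0.14 in cells not induced (n = 2 each). Differences between single arrays ran from 0.76 to 1.07, a narrower range than for DNAJB9. CREBRF was the steadier of the 2 higher genes between arrays in each group. Their order by size is not settled, since without not-induced replicate 2 CREBRF had 0.82 and DNAJB9 0.81.

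SLC7A11, read by 217678_at, had 5.83 and 6.12 on the knockdown arrays, 6.98 and 7.06 on the induced arrays, and 6.78 and 6.76 on the arrays not induced. Here the knockdown arrays were the lowest and the induced arrays the highest, with no overlap between any of the 3 groups. Of all genes, 62.6% had no overlap between knockdown and not-induced arrays, and 27.5% none between induced and not-induced arrays. The share of all genes with all 3 groups apart was not counted. The log2 fold change of knockdown against not induced was -0.79 (SE 0.13), which leaves 57.7% of the level in cells not induced and ranked 558 by absolute change (top 4.82%). The SD was 0.20 in the knockdown, against 0.06 in induced cells and 0.01 in cells not induced (n = 2 each). The spread of SLC7A11 lay mainly in the knockdown pair, and its fold change was -0.65 without knockdown replicate 1 and -0.94 without replicate 2. Differences between single arrays ran from -0.95 to -0.64.

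STC2, read by 203439_s_at, a type of probe set that can pick up related transcripts, had 6.59 and 6.46 on the knockdown arrays, 7.28 and 7.21 on the induced arrays, and 7.04 and 7.03 on the arrays not induced. Its 3 groups stood in the same order as those of SLC7A11 and did not overlap either, against the same shares of all genes. The log2 fold change of knockdown against not induced was -0.51 (SE 0.11), which leaves 70.3% of the level and ranked 1626 by absolute change (top 14.0%). The SDs of STC2 were 0.10 in the knockdown, 0.05 in induced cells and 0.01 in cells not induced (n = 2 each), and differences between single arrays ran from -0.58 to -0.43. The median absolute log2 fold change of all genes in this comparison was 0.207, and that of the 3242 genes called at an adjusted p under 0.05 by limma was 0.489. STC2 lay near that middle of the called genes, and DNAJB9 far above it.

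**Figure D1:**
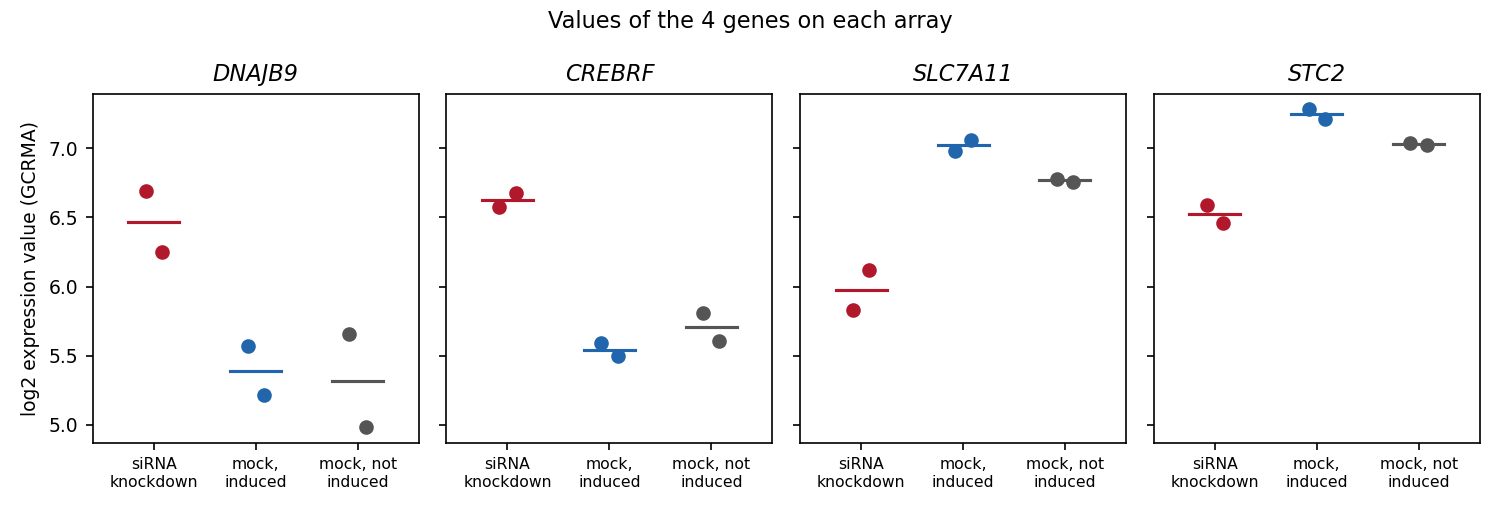
Log2 expression values (vertical axis) of DNAJB9, CREBRF, SLC7A11 and STC2 on each of the 6 arrays, with points for arrays and bars for the means of the knockdown, the induced mock cells and the mock cells not induced. The knockdown arrays are the highest for DNAJB9 and CREBRF and the lowest for SLC7A11 and STC2.

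Against the induced arrays, the knockdown had log2 fold changes of 1.08 (SE 0.24) for DNAJB9, 1.08 (SE 0.14) for CREBRF, -1.05 (SE 0.13) for SLC7A11 and -0.72 (SE 0.11) for STC2. DNAJB9 was the gene whose single-array differences spread most, from 0.68 to 1.47. Those of CREBRF ran from 0.98 to 1.18, those of SLC7A11 from -1.23 to -0.86 and those of STC2 from -0.83 to -0.62. This comparison shares the knockdown arrays with the one above, so the values are set side by side and do not count as a second observation. Its groups also differ in doxycycline, which the knockdown cells were not given.

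Induced and not induced mock cells differ in doxycycline and in the tagged LIN28B that it switches on. No array used here comes from doxycycline-treated cells without the tagged gene, so that drug and tagged gene cannot be told apart. The 4 genes were chosen with their values on these arrays known too, so their differences are given here without a test. SLC7A11 had a log2 fold change of 0.25 (SE 0.13), with both induced arrays above both others by 0.20 to 0.30. STC2 had 0.21 (SE 0.11), also with the groups apart, by 0.17 to 0.26. CREBRF had -0.17 (SE 0.14), with the induced arrays lower and the groups barely apart. DNAJB9 had 0.07 (SE 0.24), with overlapping groups. The sign for DNAJB9 turned without induced replicate 1 (-0.10) or not-induced replicate 2 (-0.26). Groups that do not overlap are common in this design: 27.5% of all genes had them in the induction comparison, and 62.6% in the knockdown against not induced. Limma called 0 of 11584 genes for induction (0%). An unadjusted limma p under 0.05 was found for 344 genes, fewer than the 579 expected by chance. LIN28B itself differed by 0.19 (95% interval 0.02 to 0.37, limma adjusted p = 0.999), and whether its probe set reads the tagged transcript is not stated.

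**Figure D2:**
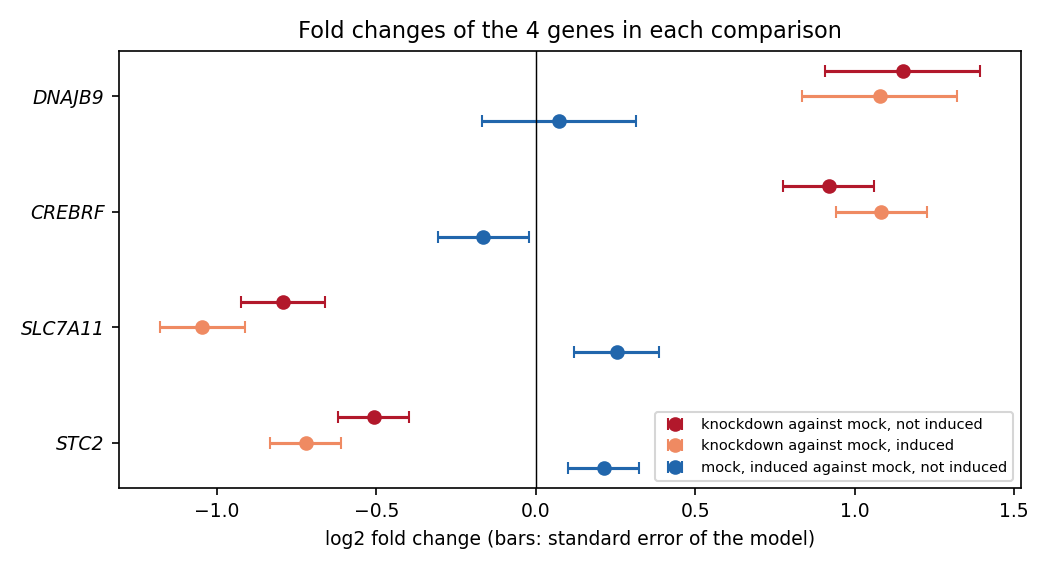
Log2 fold changes (horizontal axis) of the 4 genes with the standard error of the model as bars, for the knockdown against mock cells not induced, the knockdown against induced mock cells, and induced against not induced mock cells. The first and second comparisons share the knockdown arrays; the third lies between -0.17 and 0.25.

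The promoters of the genes are shown because textbook accounts place their stress response in short DNA elements upstream of the start. RefSeq promoters of GRCh38.p14 were found for 3 of the 4 genes. The 250 bases upstream of the annotated start are given 5′ to 3′ on the gene's strand, with CCAAT and CCACG boxes in capitals on either strand (ATTGG and CGTGG where they lie on the other).
DNAJB9, chr7:108569624-108569873, plus strand: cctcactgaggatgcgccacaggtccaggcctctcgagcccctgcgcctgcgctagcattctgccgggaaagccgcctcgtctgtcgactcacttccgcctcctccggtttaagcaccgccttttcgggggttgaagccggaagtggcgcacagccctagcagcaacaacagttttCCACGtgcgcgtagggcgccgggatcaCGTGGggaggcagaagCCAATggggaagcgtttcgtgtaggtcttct
CREBRF, chr5:173056102-173056351, plus strand: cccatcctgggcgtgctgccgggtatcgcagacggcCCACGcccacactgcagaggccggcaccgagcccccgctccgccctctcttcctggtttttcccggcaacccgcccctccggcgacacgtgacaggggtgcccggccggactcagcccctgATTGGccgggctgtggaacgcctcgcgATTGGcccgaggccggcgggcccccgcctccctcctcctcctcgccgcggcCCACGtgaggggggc
STC2, chr5:173328415-173328664, minus strand: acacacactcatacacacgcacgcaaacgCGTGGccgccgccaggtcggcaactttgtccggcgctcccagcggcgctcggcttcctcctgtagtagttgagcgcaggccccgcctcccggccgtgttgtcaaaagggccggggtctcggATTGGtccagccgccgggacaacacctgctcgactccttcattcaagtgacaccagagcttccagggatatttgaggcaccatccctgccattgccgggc
The ER stress response element joins these boxes at a fixed distance, and is known as ERSE. This full form was searched on both strands and is in none of the 3 windows; it is in 0.074% of 35116 RefSeq promoter windows of the same length. Neither was there a match to its variant ERSE-II (0.0513% of windows), to the core TGACGTG of the element bound by XBP1 and ATF6 (1.68%), to TGATGNAA, a form of the element bound by ATF4 (3.14%), or to TGACNNNGC, bound by NRF2 (10.9%). No match says only that these letters are not in this window. The single boxes, which are parts of the full element and were looked for after it was not found, are common, with CCAAT in 32.0% and CCACG in 33.5% of windows. DNAJB9 has 1 CCAAT and 2 CCACG boxes within the last 74 bases before its start, CREBRF has 2 of each, and STC2 has 1 of each. Single boxes are thus in the windows of the higher genes DNAJB9 and CREBRF and of the lower gene STC2.

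The pathways of the 4 genes were read from 9 lists of 223 other genes, of which 190 were in the table. In the knockdown against mock cells not induced, limma called 28.0% of all genes (13.5% higher and 14.5% lower). Of the 190, 27 rose, 41 fell and 122 did not pass, which makes 35.8% called, with a median log2 fold change of -0.05 against 0.01 over all genes. Fewer were called without either knockdown array, in the lists and over all genes alike. With arrays centred on their medians 37 rose and 38 fell, and over all genes 1836 rose and 1521 fell. Without the intensity trend 18 rose and 31 fell, and over all genes 1233 rose and 1356 fell.

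DNAJB9 works beside ER chaperones and folding enzymes, of which 7 rose, 2 fell and 17 did not pass among 26, with a median of 0.10. Its partner BiP, encoded by HSPA5, the classical reporter of ER stress, read 9.36 and 9.35 on the knockdown arrays and 8.92 and 9.003 on the arrays not induced, and rose by 0.40 (SE 0.07, limma adjusted p = 0.00316). That is a smaller difference than the 1.15 of DNAJB9. The list's largest change ran the other way, in the lectin chaperone gene CANX, which fell by 1.77 (SE 0.07), and FKBP14, an ER prolyl isomerase, rose by 0.74 (SE 0.09). The other fall, of the glucosyltransferase gene UGGT2, was lost without knockdown replicate 1 and without not-induced replicate 2. With arrays centred 11 rose and 2 fell. Of genes of ER-associated degradation, the process DNAJB9 assists, 7 of 22 rose, 1 fell and 14 did not pass (median 0.04), among them AUP1, which rose by 0.50 (SE 0.09). The fall, of the ubiquitin-conjugating enzyme gene UBE2J1, was lost under 7 of 14 alternatives. In this list 3 rose without knockdown replicate 1 or without the intensity trend, and 4 without knockdown replicate 2. DNAJB9 also belongs to the J-domain proteins, which stir HSP70 chaperones to hydrolyse ATP. Of the 36 others measured, 3 rose, 5 fell and 28 did not pass, which makes 22.2% called against 28.0% of all genes. Their fold changes ran from -0.96 (DNAJC2) to 0.87 (DNAJB5), below that of DNAJB9, which was chosen with its change known. DNAJB5 lost its call without knockdown replicate 2 (adjusted p = 0.0538). Heat shock proteins and their cofactors outside the ER had 3 up, 9 down and 12 not passing among 24 (median -0.13). The mitochondrial chaperone genes HSPD1, HSPE1 and HSPA9 were 3 of the 9 falls, by 0.30, 0.17 and 0.51, with BAG1, an HSP70 cofactor, falling most, by 0.93 (SE 0.10). Without the trend 5 of them fell.

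Upstream of DNAJB9 and CREBRF, sensors and transcription factors of the unfolded protein response had 2 of 14 up, 0 down and 12 not passing (median 0.08). CREB3, the ER-bound factor that CREBRF holds back, read 8.41 and 8.49 on the knockdown arrays and 8.10 on both arrays not induced, a rise of 0.35 (SE 0.09, limma adjusted p = 0.015). NFE2L1, an ER-bound factor that drives proteasome genes, rose by 0.46 (SE 0.11). Both calls were lost without either knockdown array, with adjusted p between 0.0589 and 0.108, and NFE2L1 had 0.29 without not-induced replicate 1. XBP1, whose spliced form drives DNAJB9, had -0.20 (SE 0.12, limma adjusted p = 0.222), and its splicing is not measured by this level. Of the receptors listed with CREBRF, the glucocorticoid receptor gene NR3C1 read 9.75 and 9.77 on the knockdown arrays and 9.26 and 9.15 on the arrays not induced, a rise of 0.56 (SE 0.07, limma adjusted p = 0.000454). The mineralocorticoid receptor gene NR3C2 fell by 0.34 (SE 0.09), a call lost without either knockdown array, without induced replicate 1 and with only the 4 arrays compared.

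SLC7A11 and STC2 are assigned in textbooks to ATF4, and of 30 other genes of that list 1 rose, 6 fell and 23 did not pass (median -0.14). ATF4 itself read 12.1 and 12.2 on the knockdown arrays and 12.3 and 12.7 on the arrays not induced, and fell by 0.32 (SE 0.10, limma adjusted p = 0.0326). The value moved with the cells not induced, to -0.13 without their replicate 2, where the call was lost, and to -0.51 without their replicate 1. It was lost also without either knockdown array, with arrays centred (adjusted p = 0.0525) and without the trend. ALDH1L2, a mitochondrial folate enzyme, fell most, by 0.82 (SE 0.18), to 4.07 and 4.03 on the knockdown arrays against 4.89 and 4.86 on the arrays not induced, in the lowest part of the scale. It lay above 5 on the 2 induced arrays alone. The classical reporters of the pathway of SLC7A11 and STC2 did not pass. They had log2 fold changes of -0.06 for DDIT3, -0.14 for the asparagine synthetase gene ASNS and -0.19 for the pseudokinase gene TRIB3. DDIT3 turned to 0.030 without not-induced replicate 1, and ASNS passed with quantile normalized arrays (-0.19, adjusted p = 0.0182). Rises of the list numbered 0 without knockdown replicate 1, 2 without the trend and with quantile normalized arrays, and 3 with arrays centred and without not-induced replicate 2. STC1, the paralog of STC2, and PAPPA, whose product STC2 inhibits, were not analysed here.

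Control of eIF2, which stands above ATF4 and so above SLC7A11 and STC2, had 2 genes up, 5 down and 15 not passing among 22 (median -0.07). OMA1, the mitochondrial protease that starts the signal of mitochondrial stress to eIF2, read 6.51 and 6.37 on the knockdown arrays and 8.17 and 7.99 on the arrays not induced, and fell by 1.64 (SE 0.11, limma adjusted p = 2.59e-05). Of the other large changes, IMPACT, an inhibitor of GCN2, fell by 0.78 (SE 0.16) and DELE1, which OMA1 cuts, by 0.60 (SE 0.11). IMPACT lost its call without knockdown replicate 1 (adjusted p = 0.0594), where 2 of the list fell and 1 rose. The list had 3 falls without knockdown replicate 2, 1 rise without not-induced replicate 2, and 0 rises without the trend.

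SLC7A11 is carried to the cell surface by SLC3A2, which read 8.33 and 8.23 on the knockdown arrays and 8.15 and 8.10 on the arrays not induced, and did not pass (0.15, SE 0.09, limma adjusted p = 0.225). The light chain and its carrier thus had values of opposite sign, with the carrier's not passing. Of 25 other amino acid transporter genes 1 rose, 9 fell and 15 did not pass, which makes 40% called against 28.0% of all genes. Their median of -0.28 was the lowest of the 9 lists. The glutamate transporter gene SLC1A3 read 7.52 and 7.40 on the knockdown arrays and 8.86 and 8.66 on the arrays not induced, and fell by 1.30 (SE 0.11). The taurine transporter gene SLC6A6 fell by 0.86 (SE 0.12), and SLC38A1 and SLC1A5, which carry glutamine, by 0.85 (SE 0.07) and 0.83 (SE 0.14). The list had 5 falls without knockdown replicate 1 and 6 without its replicate 2, and 2 rises without not-induced replicate 2 and with arrays centred. Of the 6 other measured members of the SLC7A family, 1 rose, 2 fell and 3 did not pass. The rise was that of SLC7A9, another cystine carrier, at 0.79 (SE 0.25), a call lost without either knockdown array, without not-induced replicate 1 and without the trend. SLC7A9 lay above 5 on both knockdown arrays and on 1 of the 4 mock arrays, so it may be in the table through the group where it was high, and its call supports nothing on the family.

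The cystine brought in by SLC7A11 goes into glutathione, and of 25 glutathione genes and NRF2 targets 3 rose, 8 fell and 14 did not pass (median -0.08). BACH1, a repressor of antioxidant genes and of SLC7A11, fell by 1.07 (SE 0.13), and the quinone reductase gene NQO1 fell by 0.66 (SE 0.14). GCLM, the modifier subunit of the enzyme that starts glutathione synthesis, had -0.0029 (SE 0.16, limma adjusted p = 0.992). Falls numbered 5 without knockdown replicate 1 and without the trend. Rises numbered 0 without knockdown replicate 1, 1 without its replicate 2 and without the trend, and 5 with arrays centred.

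**Figure D3:**
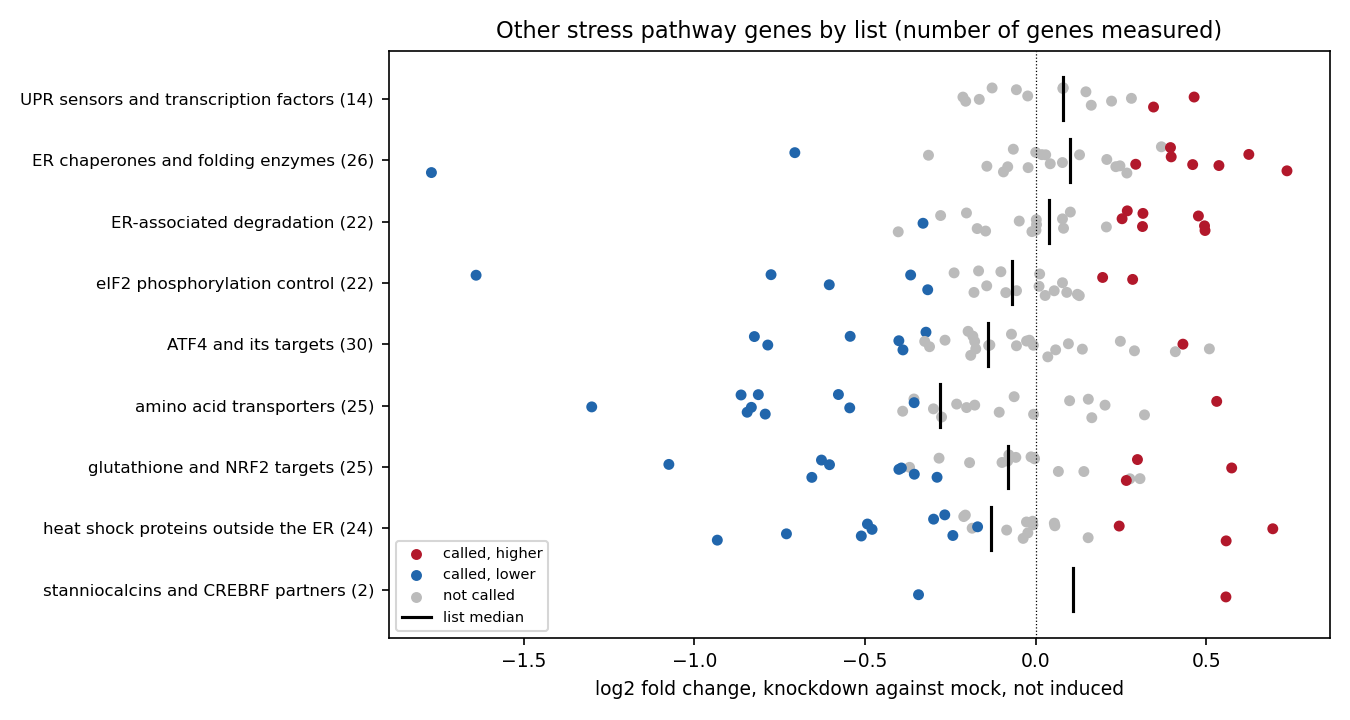
Log2 fold changes (horizontal axis) of the knockdown against mock cells not induced for the 190 other pathway genes, 1 point per gene, by list, with genes called higher in red, called lower in blue and not called in grey, and a black bar at each list's median. Medians lie between -0.28 for amino acid transporters and 0.11 for the 2 corticoid receptor genes listed with CREBRF.

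In the induction comparison 0 of the 190 pathway genes were called by limma, and 8 had an unadjusted p under 0.05 (4.21%, against 2.97% of all genes). They were, on the log2 scale, ALDH1L2 at 0.48, CHAC1 at 0.48, PSAT1 at 0.23, ASNS at 0.23 and PHGDH at 0.19 of the ATF4 list, EIF2AK4 at 0.38 and EIF2B2 at -0.18 of the eIF2 list, and HERPUD1 at 0.14 of ER-associated degradation. The limma adjusted p of each was 0.999, and the 8 were named after their values were seen. ALDH1L2 may be in the table through its induced arrays, so its higher value there is no observation on the list. The median of the ATF4 list, ALDH1L2 included, was 0.10, against 0 over all genes. That of the amino acid transporters was 0.08, and those of the other lists lay between -0.05 and 0.06.

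The genes whose values were most like those of each of the 4 over the 6 arrays were found by the root mean square difference of log2 values after each gene's mean was taken off. The knockdown change that chose the genes enters this measure. So do all other differences among the 6 arrays, and a pattern that a neighbour shares follows from how it was found. For DNAJB9 they were SHCBP1, which binds the adaptor SHC1 (0.12), PLEKHB2 (0.14) and HINT3 (0.16), and each of them, like DNAJB9, read lower on replicate 2 than on replicate 1 of not-induced cells. For CREBRF they were OTUD6B-AS1, an antisense transcript, HCFC2 and the exocyst subunit gene EXOC5, at 0.057, 0.057 and 0.064. For SLC7A11 they were the proprotein convertase gene PCSK6, the ubiquitin ligase gene TRIM9 and DENND1A, at 0.046, 0.052 and 0.065. PCSK6 read 5.42 and 5.65 on the knockdown arrays, 6.62 and 6.70 on the induced arrays, and 6.33 and 6.28 on the arrays not induced, the order of groups that SLC7A11 showed. For STC2 they were the transcription factor genes KLF9 (0.046) and TCFL5 (0.054) and PNN, a protein of splicing complexes (0.059). None of these 12 genes is in the stress lists, which hold 190 of the 11584 genes, so that few or none would be there anyway.

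**Figure D4:**
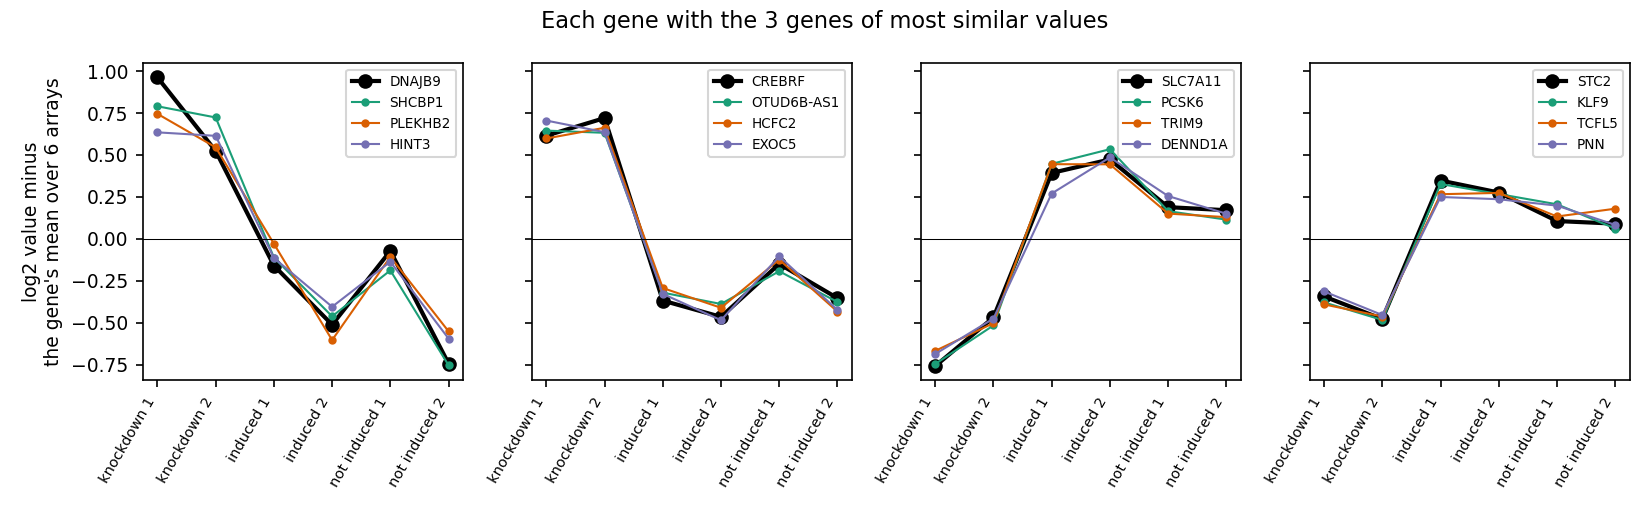
Log2 values minus each gene's mean over 6 arrays (vertical axis) on the knockdown, induced and not induced arrays (horizontal axis), for each of the 4 genes in black and the 3 genes of most similar values in colour. The lines lie furthest apart for DNAJB9, whose neighbours differ from it by 0.12 to 0.16.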

How the data were processed

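The authors deposited log2 values for each probe set, made with affy and GCRMA per the submitters' processing notes. GCRMA corrects background by probe sequence, brings arrays to a common distribution and summarises each probe set. The base of the logarithm was taken as 2, the base GCRMA returns. Array medians lay between 7.126 and 7.177. The rule by which the 13008 probe sets of the table were chosen is not given. The platform annotation gave 1 gene symbol to 11719 probe sets, several to 609 and none to 680. Symbols were updated by gene identifier to RefSeq (GRCh38.p14), where 11578 of 11584 genes matched. Where a gene had several probe sets (130 genes), the one of highest mean was used. A filter of values above 4 on at least 2 arrays removed 0 genes.

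The test was limma 3.58.1 under R 4.3.3 (lmFit, eBayes with an intensity trend, two-sided, Benjamini-Hochberg over all genes, called at adjusted p under 0.05) in 1 model of all 6 arrays, with 3 residual and 6.73 prior degrees of freedom. SE is the model's standard error. The fit was run on simulated data with the same spread for every gene, which checks the code and does not vouch for the calls. The number of arrays limits precision. The 4 genes, the lists and the tests were chosen with earlier results of these data known, and the planned test of the 4 genes for induction is therefore not reported. From each list up to 4 called genes of largest change qualified to be named (3 from each gene family), and always LIN28B, HSPA5, DDIT3, ATF4, XBP1, ASNS, TRIB3, SLC3A2 and GCLM. Alternatives were each array left out, the replicate number as a block, only the arrays compared, array centring, quantile normalization, a filter at 6, no filter, averaged probe sets, no trend, and a 2-fold minimum.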

Additional observations from a re-analysis of the deposited data

How the results depend on the processing

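The 4 genes kept their direction in the knockdown against both mock groups under every alternative run. Their direction could not turn with 1 array left out, since both knockdown arrays lay on 1 side of all 4 mock arrays. The replicate block, only the arrays compared, both changes of filter and averaged probe sets leave these fold changes as they are by construction. DNAJB9 and CREBRF passed the filter at 6 through their knockdown arrays alone. Only array centring and quantile normalization could thus have turned a direction. Leaving out 1 array gave 0.81 to 1.49 for DNAJB9, 0.82 to 1.02 for CREBRF, -0.94 to -0.65 for SLC7A11 and -0.58 to -0.44 for STC2 against cells not induced, and 0.86 to 1.30, 1.03 to 1.14, -1.19 to -0.90 and -0.79 to -0.66 against induced cells. In induced against not induced cells DNAJB9 ran from -0.26 to 0.41, turning to -0.10 without induced replicate 1 and -0.26 without not-induced replicate 2. Limma called 1563 genes higher and 1679 lower in the knockdown, 815 to 1640 and 849 to 1562 with 1 array left out, and 105 and 150 with a 2-fold minimum. Pathway genes called were 13 to 29 higher and 24 to 39 lower with 1 array left out, and 0 and 4 with that minimum. For induction 0 to 1 genes were called lower with 1 array left out. The lone array of a group is then assumed to vary like the others, and fewer arrays in the fit lower the power. Same-numbered arrays deviated together at 0.02, -0.06 and 0.18 between pairs of groups, so the numbers were not taken to pair them. With the replicate number as a block 1649 genes were higher and 1773 lower, 34 and 46 of them pathway genes, with 3 rises and 9 falls in the ATF4 list and 5 rises and 9 falls among glutathione genes. Of the 41 named genes called besides the 4, 24 kept the call under every alternative run for single genes, which leaves out the 2-fold minimum, 17 lost it without a knockdown array (adjusted p for all lost calls 0.0503 to 0.219), 4 of these also under an alternative that leaves out no array, and 0 changed sign. Among genes not called, DDIT3 ran from -0.14 to 0.030 and GCLM from -0.27 to 0.26 with 1 array left out, and GCLM turned to 0.026 with arrays centred and 0.041 quantile normalized. DDIT3 turned positive without not-induced replicate 1, and GCLM without that array (0.26) and without knockdown replicate 2 (0.043). Where no construction of the alternative shows it, the cause was not tested. Each of the 4 genes rests on 1 probe set of the deposited table, so its value could not be checked against another. The table holds part of the array, and probe sets outside it were not read.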
